A study of Homo sapiens with 8 samples.

Results

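The genes described here encode the translation factors that act around the eIF4 and eIF2 steps: the subunits of initiation factor eIF3, the factors that select the start codon and join the ribosomal subunits, the elongation factors, the release and recycling factors, and the poly(A)-binding proteins with their partners. They were chosen by name as a list of 36 genes, of which 34 are among the 12106 genes whose FPKM averaged 0.5 or more over the conditions, and their mRNA was compared between normoxia and hypoxia in SQ20B cells. SQ20B is an established human cell line from a head and neck squamous cell carcinoma. The series holds 4 normoxia samples and 4 hypoxia samples, the latter kept in 0.5% O2 for 16 h, and no gene was altered in either group. The oxygen level of the normoxia group is not given apart from the word itself, and its labels carry the same treatment text as those of the hypoxia group, so groups were taken from the source label. All values come from a single cell line, and nothing in the labels says whether the samples came from separate cultures beyond the word biological.

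FPKM counts the fragments of a transcript relative to its length and to the mapped reads of the library, so that levels can be compared between genes. The deposited table gives 1 FPKM value per condition over its 4 samples. Single samples have no value of their own here, so no replicate spread, no test and no interval stands behind any difference in the text. The methods give sequencing depth as a minimum and an average per sample, not for each sample. FPKM was summed over the transcripts listed for a gene, and a change is the log2 of hypoxia over normoxia after 0.1 was added to each sum. A gene is called lower or higher where this change reached 1.5-fold, which is a size limit and not a test. Rows of the table were paired with 34 of the 36 genes, and all 34 averaged at least 0.5 FPKM. No row was paired with EIF3C, a large eIF3 subunit, or with EEF1A1, the elongation factor that brings aminoacyl-tRNA to the ribosome, and both were not analysed here.

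Translation starts when eIF3, with eIF1 and eIF1A, holds the small ribosomal subunit ready to take up initiator tRNA and mRNA. After the start codon is found, eIF5 and eIF5B allow the large subunit to join, and eIF6 keeps unused large subunits apart until then. The elongation factors deliver tRNA and move the ribosome along, eRF1 and eRF3 (genes ETF1 and GSPT1) release the finished protein, and ABCE1 splits the ribosome for another round. In many cell types low oxygen is known to lower protein synthesis, mostly through phosphorylation of eIF2 and through mTOR, which act on the factors as proteins. Several of these factors are encoded by TOP mRNAs, which begin with a C followed by a run of pyrimidines and whose translation depends on mTOR.

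The labelled conditions and cells were checked first. Of 12 genes listed for the hypoxia response, 10 could be measured and all 10 were called higher in hypoxia, with a median log2 change of 2.49, the lowest being VEGFA at 1.02 and the highest CA9 at 4.77. The squamous lineage was represented by KRT5, a basal keratin, at 398 FPKM in normoxia and 442 in hypoxia, and by TP63, its transcription factor, at 42.8 and 44.6 FPKM, with 8 of 10 such markers measured, KRT14 and PKP1 not among them. Of the 8, 5 lay below 0, with a median log2 change of -0.24, and KRT6A (-0.63) and S100A2 (-0.60) were at least 1.5-fold lower, a count that became 0 with equal sums. Of 10 markers of immune, endothelial and fibroblast cells, 8 had no paired row. EEF1A1 and KRT14 had none either, so a missing row is not read as a low level. The markers with a row were low, CD68 at 2.36 and 2.86 FPKM and the endothelial cadherin CDH5 at 4.78 and 2.83 FPKM in normoxia and hypoxia. All listed transcripts together summed to 536005 FPKM in normoxia and 458431 in hypoxia. Scaling the gene values to equal sums therefore raised every change by up to 0.23 and moved the median over all genes from -0.07 to 0.15. Because of this shift, each change below is read against all genes, whose order equal scaling hardly alters.

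The starts of these genes show which of them carry a TOP-like sequence, so 30 bases around the annotated start are given for members with such a start and for some members with larger differences or a higher value in hypoxia. They come from RefSeq (GRCh38.p14), which had an entry for 28 of the 36 genes. In each, the first 5 transcribed bases are in capitals, after 10 bases of the promoter, and a TOP-like start was defined as a C followed by 4 bases without A or G. EIF3A, EIF3E, EIF3G, EIF3H, EIF3L, EEF1D, PABPC1 and PABPC4 had no entry.
EIF3D, chr22:36529147-36529176, minus strand: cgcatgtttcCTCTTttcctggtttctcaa
EIF3F, chr11:7987327-7987356, plus strand: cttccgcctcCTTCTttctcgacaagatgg
EIF3K, chr19:38619178-38619207, plus strand: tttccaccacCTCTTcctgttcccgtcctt
EIF3M, chr11:32583821-32583850, plus strand: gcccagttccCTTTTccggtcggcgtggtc
EEF1B2, chr2:206159885-206159914, plus strand: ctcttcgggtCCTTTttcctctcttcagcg
EEF2, chr19:3985444-3985473, minus strand: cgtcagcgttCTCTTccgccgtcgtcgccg
EIF3I, chr1:32222397-32222426, plus strand: ttccggtcttACTCAcgttgcggccttcct
ABCE1, chr4:145098301-145098330, plus strand: gcggctgggcACCGCcattttggccggtgg
ETF1, chr5:138543217-138543246, minus strand: aggaagtgatGTCACaggccccatgtgagc
EIF1, chr17:41688875-41688904, plus strand: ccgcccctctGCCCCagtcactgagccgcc
The first 6 sequences begin with the TOP-like run and the last 4 do not. EEF1A1, which was not measured, also had such a start, so 7 of the 28 genes with an entry carried it. Among all 9670 expressed genes with an entry, 7.31% did, as did 4.07% of all 35114 promoters in the table. Of 64 cytosolic ribosomal protein genes with an entry, 48 did.

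Nearly the whole set was lower in hypoxia. The log2 change lay below 0 for 31 of 34 genes, against 56.4% of all genes, and its median was -0.44 against -0.07 over all genes. At least 1.5-fold lower were 11 of the 34 genes, namely EIF3D, EIF3F, EIF3G, EIF3I, EIF3J, EIF5, EIF6, EEF1E1, EIF5A, ETF1 and ABCE1, against 11.2% of all genes. None of the 34 was at least 1.5-fold higher, against 9.95% of all genes, and EIF3H, EIF1 and PAIP2 were the members above 0. The same 11 genes were in the lowest 10% of changes over all genes, a place that follows largely from the limit, which took in the lowest 11.2%. With the columns scaled to equal sums, 5 of these 11 remained at least 1.5-fold lower (EIF3G, EIF3I, EIF6, ETF1 and ABCE1) against 5.03% of all genes, PAIP2 became the 1 gene at least 1.5-fold higher against 18.3%, and 26 of 34 lay below 0 against 36.3%. Quantile normalization gave the same 5 lower genes against 9.69% and PAIP2 as the 1 higher gene against 10%, with 27 of 34 below 0 against 51.5%. These factors are abundant, with a median mean FPKM of 95.8 against 9.23 over all genes and 22 of them above the 90th percentile of level. Abundant genes were lower in hypoxia more often than others. Among the 3871 genes that averaged 20 FPKM or more, a limit chosen after the values were seen, 72.5% lay below 0, 14.2% were at least 1.5-fold lower, 4.47% were at least 1.5-fold higher and the median change was -0.21. Of the 31 members above that limit, 28 lay below 0, 11 were called lower and none higher, and their median was -0.44.

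**Figure D1:**
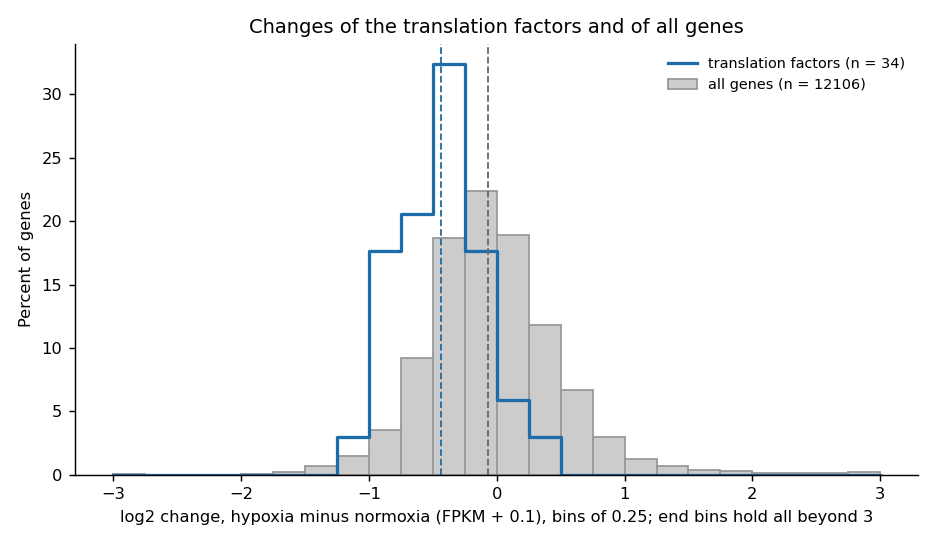
Percent of genes per bin of log2 change, hypoxia minus normoxia, for all 12106 genes (grey bars) and the 34 measured translation factors (blue line), with dashed lines at the medians of -0.07 and -0.44. The translation factors lie to the left of the bulk of all genes, and none lies below -1.24 or above 0.46.

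**Figure D2:**
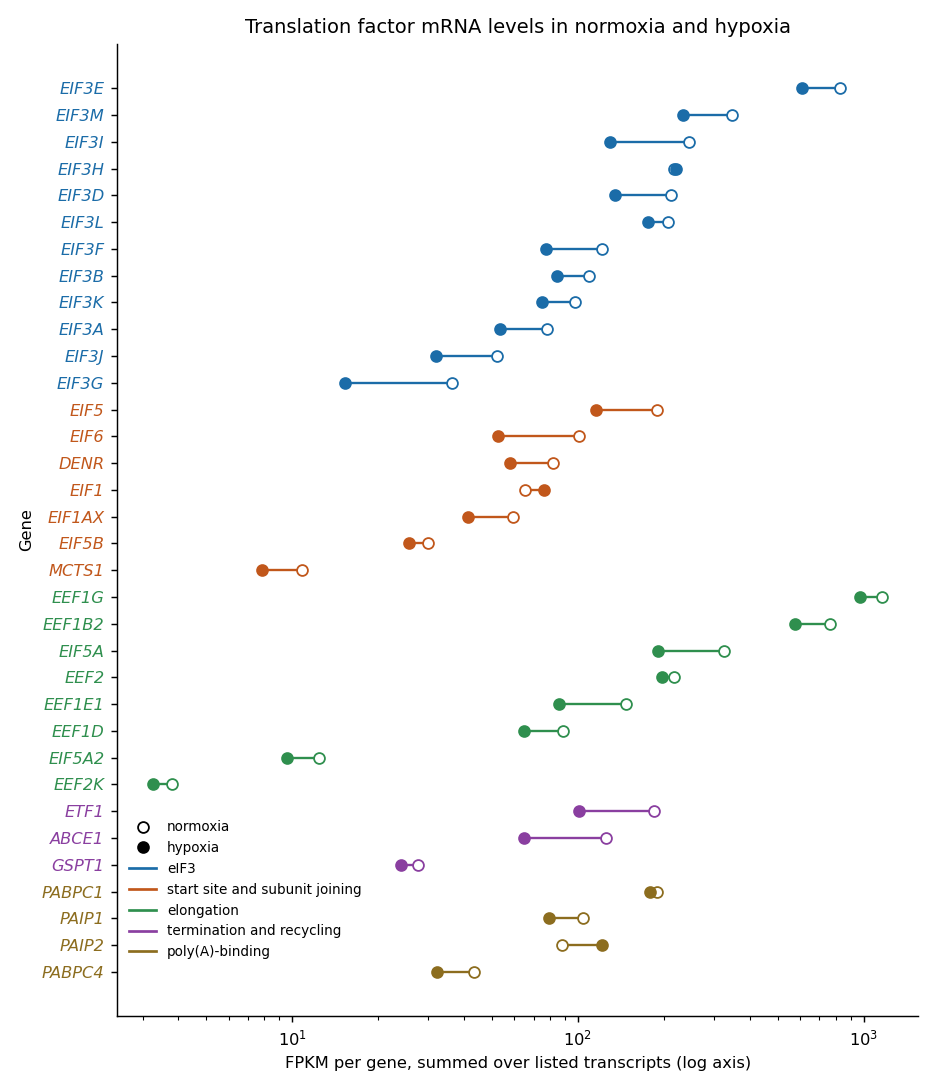
FPKM of each translation factor gene in normoxia (open points) and hypoxia (filled points) on a log axis, 1 value per condition with no error, coloured by role and ordered by level within a role. The filled point lies to the left for 31 of 34 genes, and levels run from EEF2K at 3.28 FPKM in hypoxia to EEF1G at 1159 FPKM in normoxia.

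eIF3 is the largest of the initiation factors, a scaffold that binds the small subunit and keeps it free until initiation. Of its 12 measured subunits, 11 lay below 0 (10 after quantile normalization), with a median log2 change of -0.56. As deposited 5 (41.7%) were called lower, against 11.2% of all genes. With equal sums 2 were, against 5.03% of all genes, and after quantile normalization 2, against 9.69%. EIF3G, an RNA-binding subunit, had the largest difference in the whole set: 36.2 FPKM in normoxia and 15.3 in hypoxia, 2.36-fold lower (log2 change -1.24), at percentile 1.16 of all genes. It was called lower under each scaling tried, from -1.24 as deposited to -1.01 with equal sums. Its gene spans chr19:10225690-10230594 of GRCh37 on the minus strand, and 10.5% of its exonic bases are also exonic in a gene on the opposite strand, P2RY11. EIF3I, the WD40 propeller subunit, was at 244 FPKM in normoxia and 130 in hypoxia, 1.88-fold lower. EIF3G and EIF3I bind EIF3B in the part of the complex shared with yeast, and EIF3B, which also carries an RNA recognition motif, was at 109 and 84.4 FPKM, with a log2 change of -0.37. EIF3A, the scaffold of that part, was at 78.0 and 53.4 FPKM (-0.55). The ratio of EIF3G to EIF3B mRNA went from 0.332 in normoxia to 0.181 in hypoxia, a difference between partners that could not be tested.

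EIF3J, a loosely held subunit that binds in the decoding centre, was at 52.2 FPKM in normoxia and 31.9 in hypoxia, 1.63-fold lower. EIF3D, which can bind the cap of some mRNAs, was at 211 and 135 FPKM, 1.56-fold lower. EIF3F and EIF3H are the subunits with an MPN domain, and their values went apart. EIF3F was at 121 FPKM in normoxia and 77.3 in hypoxia (log2 change -0.65), whereas EIF3H was at 217 and 220 FPKM (0.02), the sole eIF3 subunit that was not lower. EIF3H was also above 0 under every scaling tried, up to 0.33 after quantile normalization.

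The PCI domain subunits form the arch of the complex. All 5 that were measured, EIF3A among them, lay below 0, with a median of -0.44. None of the 5 was called lower, against 11.2% of all genes, and 5 genes are too few to tell from that share. EIF3M was at 346 FPKM in normoxia and 233 in hypoxia, 1.49-fold lower and so just short of the limit. EIF3E, the most abundant subunit, was at 823 and 608 FPKM (-0.44). EIF3K, a small accessory subunit, was at 97.4 and 74.7 FPKM (-0.38). EIF3L was at 207 and 175 FPKM (-0.24), and its change turned to 0.04 under quantile normalization. In the GENCODE annotation, 58.5% of the exonic bases of EIF3L also belong to another annotated gene on the same strand, so its level may include reads of both.

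Subunits that sit in the same complex did not have equal mRNA levels. In normoxia the FPKM of the 12 subunits ran from 36.2 for EIF3G to 823 for EIF3E, a 22.8-fold range around a median of 164. In hypoxia it ran from 15.3 to 608 for the same subunits, a 39.8-fold range around a median of 107. The standard deviation of the log2 levels across subunits was 1.24 in normoxia and 1.41 in hypoxia, which is a spread over genes and not over replicates. Relative to the median subunit, EIF3H went from 1.32 to 2.06 times and EIF3L from 1.26 to 1.64 times, while EIF3G went from 0.220 to 0.143 times and EIF3I from 1.49 to 1.21 times. The 2 highest and the 4 lowest subunits kept their places, and EIF3I went from the third to the sixth.

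**Figure D3:**
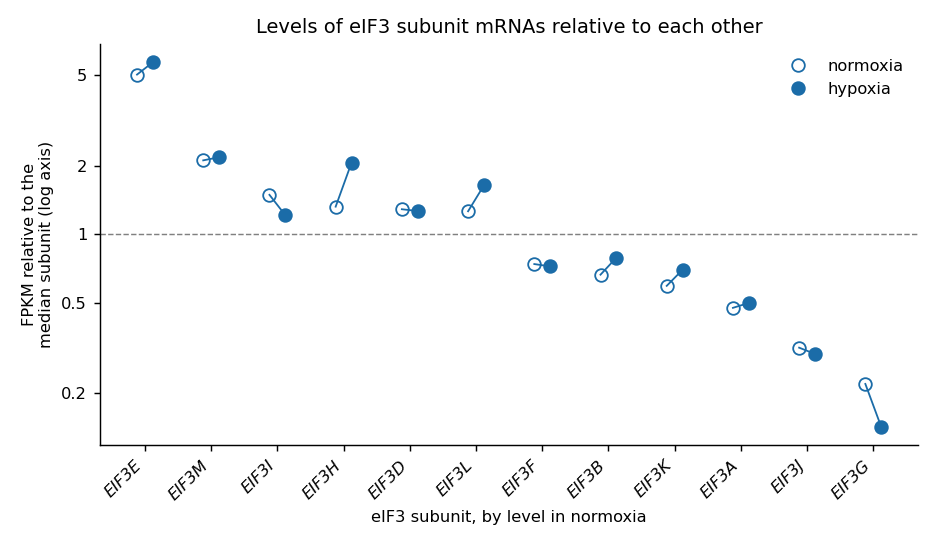
FPKM of each of the 12 measured eIF3 subunits divided by the median subunit of the same condition, on a log axis, in normoxia (open points) and hypoxia (filled points), without error since each is 1 value. EIF3G lies furthest below the median and further in hypoxia (0.143) than in normoxia (0.220), and EIF3H and EIF3L lie further above it in hypoxia.

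The factors that act at the start codon and at subunit joining had a median log2 change of -0.50, with 6 of 7 below 0 (5 with equal sums). EIF5 and EIF6 (28.6%) were called lower, against 11.2% of all genes. With equal sums or quantile normalization EIF6 alone was. EIF6, which binds the large subunit and prevents early joining, was at 101 FPKM in normoxia and 52.5 in hypoxia, 1.92-fold lower, and lay at percentile 3.12 of all genes. The gene spans chr20:33866710-33872788 of GRCh37 on the minus strand, and 26.6% of its exonic bases are shared with another annotated gene on that strand. EIF5, the GTPase activator of eIF2, was at 188 and 116 FPKM, 1.63-fold lower. EIF1, which opposes eIF5 by keeping the scanning subunit open and so guards against wrong start codons, was one of the few members with a higher value in hypoxia, at 65.4 FPKM in normoxia and 76.2 in hypoxia, 1.17-fold higher. The ratio of EIF1 to EIF5 mRNA accordingly went from 0.347 in normoxia to 0.659 in hypoxia. Multiplying a column by a constant leaves this ratio as it is.

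EIF1AX, the partner of eIF1 on the small subunit, was at 59.3 FPKM in normoxia and 41.4 in hypoxia (-0.52). EIF5B, the GTPase that joins the subunits, was at 29.9 and 25.6 FPKM (-0.22), and its change was 0.00 with equal sums. DENR and MCTS1 form a dimer that serves reinitiation and recycling. DENR was at 81.8 and 57.8 FPKM (-0.50) and MCTS1 at 10.8 and 7.83 FPKM (-0.46), so the ratio between them was nearly level at 7.55 in normoxia and 7.38 in hypoxia.

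All 8 measured elongation factors and regulators lay below 0, or 6 of them with equal sums or quantile normalization, with a median of -0.40. As deposited, 2 of them (25%) were called lower, against 11.2% of all genes, and none was under either scaling. EIF5A carries hypusine, an amino acid found in this factor, and helps ribosomes past stalling sequences and at stop codons. It was at 324 FPKM in normoxia and 191 in hypoxia, 1.70-fold lower. Its paralogue EIF5A2 was much scarcer, at 12.5 and 9.60 FPKM (-0.37), and the ratio of EIF5A to EIF5A2 went from 26.0 to 19.9. A near-identical copy of EIF5A, EIF5AL1, was listed at 1.16 and 0.746 FPKM, and how reads were divided between copies is not given in the sources used here. EEF1E1, named as an elongation factor but better known as a scaffold protein (AIMP3) of the multisynthetase complex, was at 148 FPKM in normoxia and 85.8 in hypoxia, 1.72-fold lower. A readthrough gene, EEF1E1-BLOC1S5, shares 37.5% of its exonic bases.

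The eEF1B complex recharges eEF1A with GTP, and its 3 subunits were closer to level than EIF5A. EEF1B2, the exchange factor, was at 765 FPKM in normoxia and 573 in hypoxia (-0.42). EEF1D, a related exchange factor, was at 88.4 and 65.0 FPKM (-0.44). EEF1G, the structural subunit and the most abundant member of the set, was at 1159 and 970 FPKM (-0.26), a change of -0.03 with equal sums. For EEF1G, 99.5% of the exonic bases are shared with another annotated gene on the same strand. EEF2, the translocase, was at 217 and 197 FPKM (-0.14), and this change became 0.08 with equal sums and 0.18 after quantile normalization. EEF2K, the kinase that inhibits eEF2 when energy is low, was the scarcest member at 3.81 and 3.28 FPKM (-0.21), with 0.01 under equal sums. The ratio of EEF2 to its kinase was 56.9 in normoxia and 60.0 in hypoxia.

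Of the 3 release and recycling factors, ETF1 and ABCE1 were called lower, against 11.2% of all genes, and GSPT1 was not. ABCE1, the ATPase that splits ribosomes after termination, was at 125 FPKM in normoxia and 64.7 in hypoxia, 1.93-fold lower and at percentile 3.04 of all genes. It lies at chr4:146019440-146050676 of GRCh37, plus strand. ETF1, the release factor that reads stop codons, was at 185 and 101 FPKM, 1.84-fold lower. It lies at chr5:137841784-137878925, minus strand. GSPT1, the GTPase that works with it, was at 27.6 and 24.1 FPKM (-0.20), and this change became 0.03 with equal sums. The ratio of ETF1 to GSPT1 thus went from 6.71 to 4.19. ABCE1 and ETF1 were called lower under every scaling tried.

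PABPC1, the main cytoplasmic poly(A)-binding protein, was at 190 FPKM in normoxia and 179 in hypoxia (-0.08), and its change was 0.15 with equal sums and 0.20 after quantile normalization. PABPC4, a related protein, was at 43.2 and 32.3 FPKM (-0.42). The retrocopy PABPC3, named here as a near-identical copy of PABPC1, was listed at 2.33 and 2.32 FPKM. The partners of poly(A)-binding protein went in opposite directions. PAIP1, which promotes its role in translation, was at 104 FPKM in normoxia and 79.4 in hypoxia (-0.39). PAIP2, which displaces it from poly(A) and inhibits translation, was at 88.0 and 121 FPKM, 1.38-fold higher and at percentile 85.9 of all genes. The ratio of PAIP1 to PAIP2 was 1.18 in normoxia and 0.654 in hypoxia, so that the more abundant partner differed between the conditions. PAIP2 lies at chr5:138677276-138705409 of GRCh37 on the plus strand, and 45.6% of its exonic bases are also exonic in a gene on the opposite strand. The libraries were stranded, but whether strand was used in assigning fragments is not given in the sources used here. The median of the 4 genes of this group was -0.23, and it turned to 0.030 under quantile normalization.

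**Figure D4:**
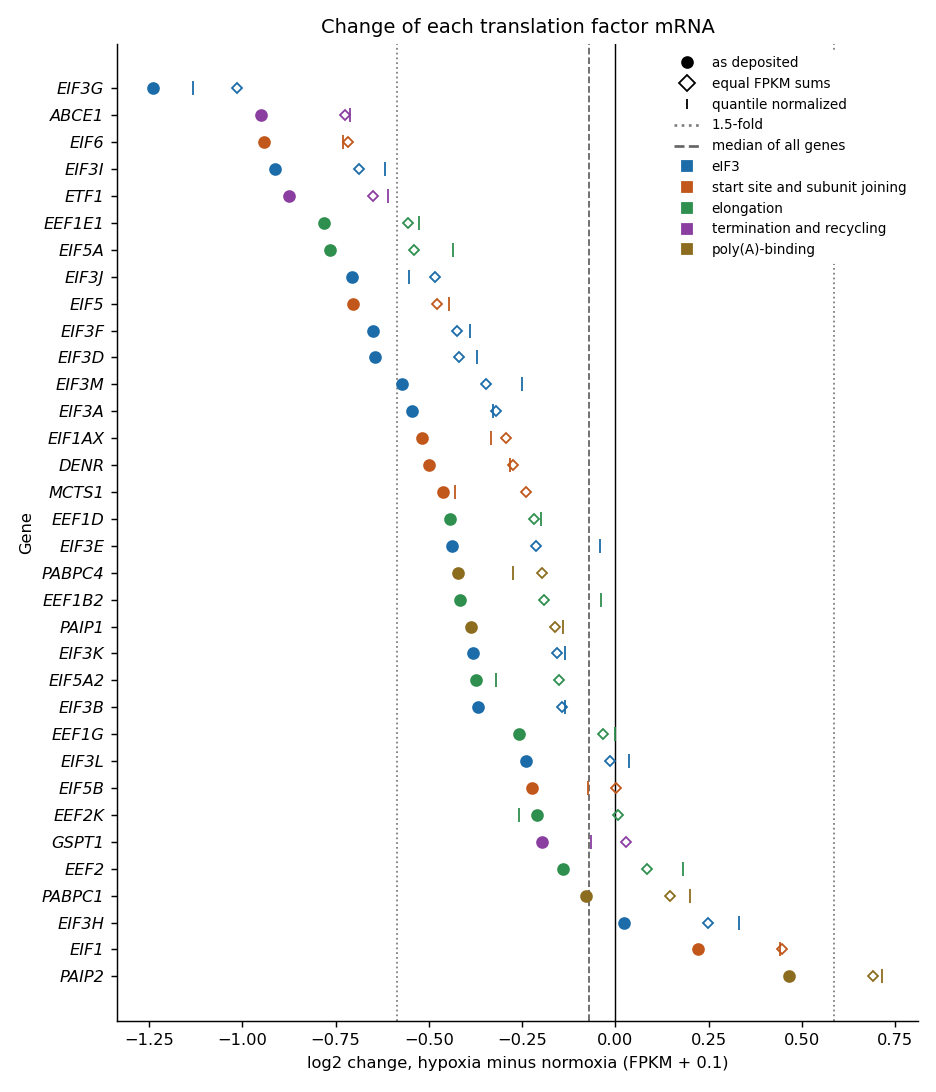
log2 change, hypoxia minus normoxia, of each of the 34 measured genes as deposited (filled points), with columns scaled to equal FPKM sums (diamonds) and after quantile normalization (ticks), with dotted lines at 1.5-fold and a dashed line at the median of all genes. EIF3G, ABCE1, EIF6, EIF3I and ETF1 stay left of the lower 1.5-fold line in all 3, and PAIP2 passes the upper one under both scalings.

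Values of single transcripts show whether a gene's difference was shared by its variants. The 34 genes were covered by 66 listed transcripts, and 13 genes had more than 1 that averaged at least 0.5 FPKM. The share of a gene's summed FPKM held by a transcript moved by at least 5 percentage points for 4 of 36 such transcripts, in ETF1, EIF6 and GSPT1. The matching count over all genes is not given here, so whether 4 of 36 is many or few is not known. In ETF1, the main variant NM_004730 was at 156 FPKM in normoxia and 72.7 in hypoxia (log2 change -1.10), while NM_001282185 was at 28.7 and 28.0 FPKM (-0.04). The lower level of ETF1 thus lay almost wholly in the main variant, whose share went from 84.3% to 72.2%. In EIF6, all listed variants were lower, but NM_001267810 (27.4 and 19.7 FPKM, -0.47) less so than NM_002212 (54.9 and 26.9 FPKM, -1.03), and its share went from 27.1% to 37.6%. The noncoding variants NR_052022 and NR_052024 of EIF6 had changes of -1.50 and -1.92.

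In GSPT1, NM_002094 was at 13.8 and 10.6 FPKM and its share went from 50.2% to 44.1%, whereas NM_001130007 was level at 8.97 and 8.98 FPKM. In EIF5 and EIF5A, every variant that averaged at least 0.5 FPKM was lower in hypoxia, NM_001969 of EIF5 by -0.81 and NM_183004 by -0.52 on the log2 scale, and the 4 variants of EIF5A by -1.13 to -0.71. In EEF1B2, 93.0% of the normoxia FPKM belonged to NM_021121 (711 and 543 FPKM), and the minor variant NM_001959 was at 34.4 and 16.8 FPKM. How Cufflinks divides fragments among overlapping variants affects all of these values, and its error was not analysed here.

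**Figure D5:**
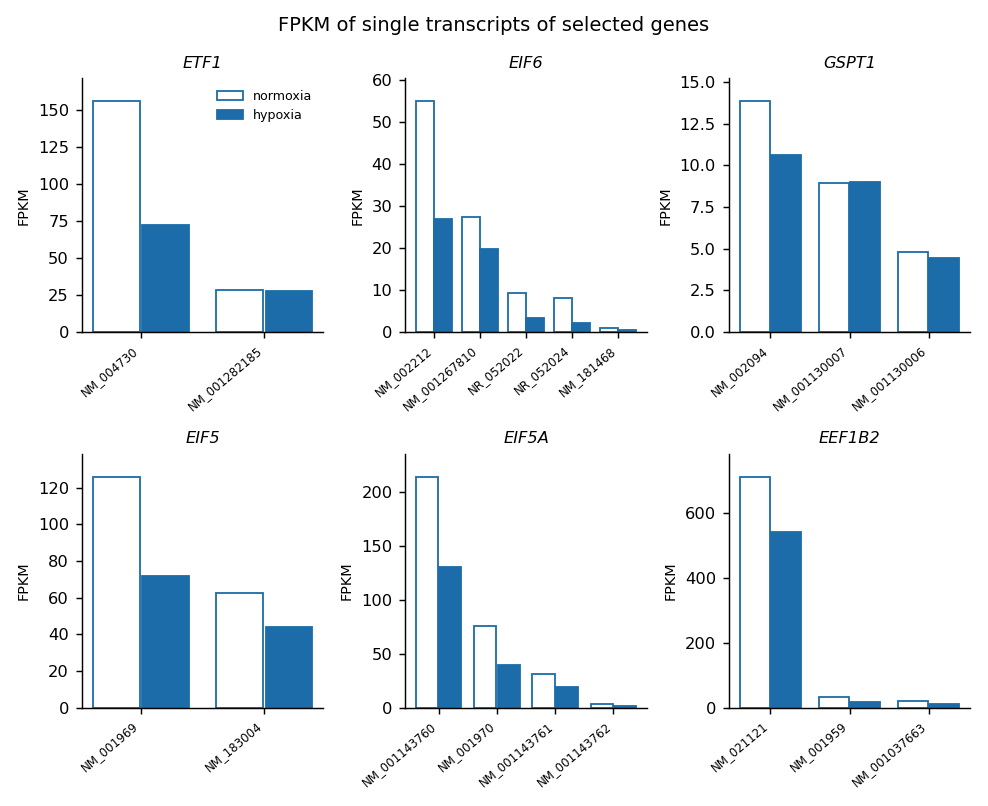
FPKM of each transcript averaging at least 0.5 FPKM of 6 genes, in normoxia (open bars) and hypoxia (filled bars), without error bars since each is 1 value per condition. In ETF1 the main transcript is lower in hypoxia and NM_001282185 is level (28.7 and 28.0 FPKM), while in EIF5 and EIF5A every transcript shown is lower.

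Among measured members with an entry, those with and without a TOP-like start had nearly the same median change. The 6 measured genes with such a start had changes from -0.65 (EIF3F) to -0.14 (EEF2) and a median of -0.49, and the 20 measured genes with an entry and without it had a median of -0.48. For all expressed genes with an entry these medians were -0.13 and -0.07. A gene counted as having the start where any of its annotated starts matched. EEF1G, on the list of classical TOP mRNAs, counted as without it. EIF3E, EIF3H, EEF1D and PABPC1, also on that list, had no entry and are in neither group. Their changes were -0.44, 0.02, -0.44 and -0.08. Of 9 genes listed as classical TOP mRNAs, 8 were measured, with a median of -0.34. Of these 8, 1 (12.5%), EIF3F, was called lower, near the 11.2% of all genes. With equal sums their median was -0.11 with 5 of 8 below 0, and after quantile normalization it was -0.02 with 4 of 8 below 0, and none was called lower under either. An ETS-type motif (CCGGAAG or its reverse complement CTTCCGG, anywhere in 250 bases before to 50 after the start) was found in 11 of 28 genes, against 23.2% of expressed genes with an entry. Measured members with it had a median change of -0.57 and those without it -0.39. Over all expressed genes these medians were -0.19 and -0.04. The E-box CACGTG was found in 5 of the 28 genes, against 12.4%. Measured members with it had a median of -0.37 and those without it -0.52, against -0.13 and -0.07 over all expressed genes. The shorter motif ACGTG (or CACGT), which also lies within the E-box, was found in 14 of the 28 genes, against 32.5%, and the medians with and without it were -0.38 and -0.67, against -0.09 and -0.07 over all expressed genes. A match says only that the letters are there.

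Level and length were set against the change across the members. Across the 34 genes, the Spearman correlation of the change was 0.01 with mean FPKM, 0.17 with coding length, 0.07 with the length of the 3′ UTR and 0.23 with the span of the gene, and Pearson's r with the log2 of each was 0.01, -0.01, 0.12 and 0.22. Across all genes the Spearman correlations were -0.28 with level (12106 genes), 0.25 with coding length (10976 genes) and 0.23 with gene span (11085 genes). Genes are not independent replicates, and all points share the same libraries.

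Other lists of the translation machinery were described in the same way. Among all genes, 56.4% lay below 0, 11.2% were called lower and 9.95% higher. With equal sums 36.3% lay below 0 and 5.03% were called lower, and after quantile normalization 51.5% and 9.69%. All 8 eIF2 and eIF2B subunits lay below 0, or 7 of them with equal sums or quantile normalization, with a median of -0.52. Of them 4 were called lower, which became 1 with equal sums, after quantile normalization and with the median of all genes set to 0, and the changes ran from EIF2B3 (30.2 and 15.6 FPKM, -0.95) to EIF2S3 (183 and 162 FPKM, -0.18). Of 12 measured eIF4 factors and 4E-binding proteins, 6 lay below 0, with a median of -0.08 against -0.07 for all genes (0.14 against 0.15 with equal sums), and 1 was called lower and 1 higher. The cap-binding EIF4E (32.9 and 20.7 FPKM) was the lowest at -0.66. Of 73 measured cytosolic ribosomal protein genes, 68 lay below 0, with a median of -0.29. Of these 73, 5 were called lower, which at 6.85% was a smaller share than the 11.2% of all genes. With equal sums 48 lay below 0, 1 was called lower and the median was -0.06, and after quantile normalization 40 lay below 0, 1 was called lower and the median was -0.02, near that of all genes. The extremes were RPS26 at -0.92 and RPS16 at 0.81. Whether the members differ from these lists could not be tested.

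Enzymes that modify the factors were also lower. All 16 measured of 17 lay below 0, or 15 of them with equal sums or with the median of all genes set to 0, with a median of -0.53. As deposited, 5 (31.2%) were called lower, against 11.2% of all genes. This count was 3 with equal sums and 4 after quantile normalization. The 5 were EEF2KMT, the lysine methyltransferase of eEF2 (5.70 and 2.16 FPKM, -1.36), DPH1, DPH2 and DPH5, which help build the diphthamide of eEF2 (-0.68, -1.09 and -0.60), and JMJD4, an oxygen-dependent hydroxylase of eRF1 (3.71 and 1.74 FPKM, -1.05). The EEF1AKMT3 value was nearest to level at -0.03. Of the 12 mitochondrial translation factors, 11 lay below 0 and 5 (41.7%) were called lower, with a median of -0.44. With equal sums these counts were 9 and 1, and after quantile normalization 12 and 3. Changes ran from MTRFR, a rescue factor, at -0.84 to MTRF1 at 0.00. Each of these medians of the modifying enzymes and of the mitochondrial factors stayed below 0 under every scaling tried.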

How the data were processed

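Poly(A)-selected stranded libraries of 4 normoxia and 4 hypoxia samples were aligned by the authors with STAR 2.3.0.1 to RefSeq hg19 and analysed with the Cufflinks suite 2.1.1 with standard parameters and RefSeq annotation, per the submitters' processing notes and the methods. The deposited FPKM values are the authors' value for each condition over its replicates. The deposited table also holds the authors' fold changes, test statistics, p-values and q-values, which were not used. Of 24812 rows, 24293 (97.9%) were paired with gene symbols through RefSeq accessions (GRCh38.p14, names only), and FPKM was summed per gene. Changes were log2((hypoxia + 0.1)/(normoxia + 0.1)) for genes averaging at least 0.5 FPKM over the conditions, and a call is at least 1.5-fold. The procedure was also run on simulated data, but the accuracy of the calls reported here was not tested. No test was run, since each condition is 1 value, and p-values of any kind are absent. FPKM carries no read counts, so counting error is unknown here, and depth is known only as the minimum and average that the methods give.

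Gene spans and shared exonic bases came from GENCODE 44 lifted to GRCh37, the build of the table, and sequences from RefSeq (GRCh38.p14). Coordinates count from 1. All 36 members were to be named, with the highest and lowest gene of each other list, and transcripts whose share moved by at least 5 points. Other transcripts, ratios, near-identical copies, the enzymes called lower and the marker genes other than the extremes were named after their values were seen. The value of 1 gene and 1 sequence are not reported here. Members and lists were chosen with earlier results of these data known. Other scalings, pseudocounts, FPKM limits, folds and ways of summing transcripts were tried as alternatives. Python 3.11.15, numpy 2.4.6, pandas 2.3.3 and matplotlib 3.10.9 were used.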

Additional observations from a re-analysis of the deposited data

How the results depend on the processing

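No paired analysis was possible because the table holds 1 value per condition, and for the same reason no replicate could be left out. The scaling of the columns and the fold limit moved the results. With equal FPKM sums, 5 of 34 genes were at least 1.5-fold lower and 1 was higher, and the median change was -0.21 for all members, -0.33 for eIF3, -0.27 for start site and subunit joining, -0.17 for elongation, -0.65 for termination and recycling and -0.0088 for the poly(A)-binding group. Quantile normalization likewise gave 5 lower and 1 higher, with medians of -0.27 for all members, -0.29, -0.33, -0.23 and -0.61 for these groups in the same order, and 0.030 for the poly(A)-binding group, which reversed. The 5 lower genes were shared with the 11 reported in both cases. The sign of 5 single genes (EIF5B, EEF2, EEF2K, GSPT1 and PABPC1) turned with equal sums and that of 3 (EIF3L, EEF2 and PABPC1) with quantile normalization, none of them a gene called lower. The median over all genes was 0.15 with equal sums and -0.02 after quantile normalization. All 5 genes that turned with equal sums stayed below the median of all genes, while the 3 that turned with quantile normalization lay above it. With the smaller fold limit that was tried, 24 genes were lower and 1 higher, and at 2-fold 1 was lower. The matching shares of all genes at these other limits are not given here. Whether these counts are many or few is therefore not known. Setting the median of all genes to 0 left 9 of the 11 genes lower. Adding 1 or nothing in place of 0.1, other FPKM limits (0, 5 and, added after the data were seen, 20), the most abundant transcript alone and coding transcripts alone each kept the 11 genes. A mean FPKM of at least 1 left the count of shifted transcripts at 4. Without values of single samples, no difference here can be set against replicate error.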

Other observations

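The lists for ribosome rescue and for the multisynthetase complex were less uniform in sign than the members. Of 13 measured genes for ribosome rescue and quality control, which free and degrade the products of stalled ribosomes, 9 lay below 0, with a median log2 change of -0.27. None was called lower or higher, against 11.2% and 9.95% of all genes. With equal sums 7 lay below 0 with a median of -0.05, and after quantile normalization 8 with a median of -0.15. The lowest was NEMF at -0.49 (34.6 FPKM in normoxia and 24.5 in hypoxia) and the highest TRIP4 at 0.26. Of the 10 genes of the multisynthetase complex listed beside EEF1E1, 8 lay below 0 and 2 (20%) were called lower, against 56.4% and 11.2% of all genes, with a median of -0.42. Under equal sums and quantile normalization alike, 7 lay below 0, 1 was called lower and 1 higher, with a median of -0.19. The scaffold protein AIMP2 was at 80.2 FPKM in normoxia and 31.6 in hypoxia (-1.34), which was a larger difference than that of any of the 34 translation factors.

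Among paralogues of the factors, 8 of 12 were measured, at a median mean FPKM of 2.83. EEF1A2, the tissue-restricted form of eEF1A, was at 13.1 FPKM in normoxia and 6.84 in hypoxia (-0.93). PAIP2B, the paralogue of PAIP2, was at 1.69 and 3.59 FPKM (1.04), the highest of the list, so that both PAIP2 genes had higher values in hypoxia. EIF3CL, a near-identical copy of the unmeasured EIF3C, was listed at 2.60 and 1.96 FPKM.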
